A study of Homo sapiens with 9 samples.

Results

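FRA22B is a common fragile site mapped cytogenetically to band 22q12.2, taken here as chr22:29200001-31800000 of GRCh38, a length of 2.6 Mb. All γH2AX peaks overlapping these bases by at least 1 bp were collected from 8 lists of broad peaks. There were 809 of them, out of 213467 peaks in the whole series. The band was chosen on its peak numbers relative to the autosomal mean of each list, so its peak density, counts per gene and counts per 100 kb are given as descriptions without a test. Tests were kept for measures that the choice did not use.

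The study mapped chromatin carrying phosphorylated histone H2AX by chromatin immunoprecipitation and sequencing (ChIP-seq) and asked whether drugs that stall replication in different ways mark different loci. The cells were a human B-lymphocyte line, GM09027A in the labels and GM07027 in the methods, so all groups share 1 genetic background and no second line was examined. The 4 groups, each of 2 lists, were untreated cells and cells exposed for 24 h to 0.1 µg/mL aphidicolin (APH), 2 mM hydroxyurea (HU) or 200 µM methyl methanesulfonate (MMS). Each replicate was an independent treatment and immunoprecipitation. The input was not analysed here.

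Common fragile sites are chromosome regions that show gaps and breaks at metaphase when DNA replication is slowed. When a replication fork stalls or collapses, the kinases ATR and ATM phosphorylate H2AX on its C-terminal tail. The phosphorylated form, γH2AX, spreads along the surrounding chromatin, so a peak marks a damaged neighbourhood and not the broken base itself. APH inhibits the replicative polymerases, HU depletes deoxyribonucleotides by blocking ribonucleotide reductase, and MMS methylates bases that forks then encounter. The band holds NF2, whose product merlin is a tumour suppressor lost in schwannomas, and EWSR1, the RNA-binding gene rearranged in Ewing sarcoma.

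An HU site and an APH site that recurred between replicates are printed as examples from GRCh38, 5′ to 3′ on the plus strand. Each is the first of its condition by mean fold enrichment over background. Fold enrichment is the height over the local background given by the peak caller MACS2. Capitals would mark bases that matched an Alu element, a primate-specific short interspersed repeat. The HU window lies at chr22:29476575-29476874 in an intron of the long non-coding gene RFPL1S, and the APH window at chr22:30358456-30358652 in an intron of CCDC157.
First HU site: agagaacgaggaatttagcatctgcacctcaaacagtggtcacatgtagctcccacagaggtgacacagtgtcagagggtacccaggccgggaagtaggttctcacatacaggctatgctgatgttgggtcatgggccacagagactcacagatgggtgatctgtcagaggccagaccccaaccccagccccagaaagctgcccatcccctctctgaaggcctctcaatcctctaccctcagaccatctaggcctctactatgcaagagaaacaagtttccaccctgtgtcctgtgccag
First APH site: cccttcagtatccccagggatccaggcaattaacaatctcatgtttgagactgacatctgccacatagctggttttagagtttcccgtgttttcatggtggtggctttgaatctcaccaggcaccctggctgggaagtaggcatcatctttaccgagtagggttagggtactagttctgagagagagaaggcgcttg
Neither window held an Alu match, so both are in lower case throughout. Over their whole length, 55.8% and 54.6% of the HU peaks of the band met an Alu match, and 42.9% and 45.7% of the APH peaks. The windows are parts of their sites, so these shares are not the same measure.

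The whole lists ranged from 4343 peaks in untreated replicate 2 to 79950 in HU replicate 1. They give no read numbers, which leaves the sequencing depth unknown, and depth, immunoprecipitation yield and treatment cannot be told apart in a raw peak number. The p-values below measure the spread between lists, which share conditions and one input library.

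HU gave by far the most γH2AX peaks in the band among the 4 conditions, and the band was denser than the autosomal mean in all 8 lists. The counts were 8 and 13 in the untreated replicates, 49 and 35 after APH, 330 and 306 after HU, and 37 and 31 after MMS. An even spread over the assembled autosomes would have put 4.51 and 4.08 untreated peaks there, 16.7 and 13.2 APH peaks, 75.4 and 66.0 HU peaks, and 11.5 and 9.87 MMS peaks. The observed density was thus 1.78 and 3.19 times the autosomal density in untreated cells, 2.94 and 2.65 times after APH, 4.38 and 4.64 times after HU, and 3.22 and 3.14 times after MMS.

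Both HU ratios lay above all 6 others, while the untreated replicates spanned the APH ratios and reached the MMS ones. The mean ratio was 2.48 ± 0.997 in untreated cells, 2.80 ± 0.207 after APH, 4.51 ± 0.184 after HU and 3.18 ± 0.053 after MMS (SD, n = 2 each). The mean peak number, set against untreated cells, rose 30.3-fold in the band after HU against 16.4-fold over all autosomes. The corresponding pairs were 4.0-fold and 3.48-fold for APH, and 3.24-fold and 2.49-fold for MMS. HU peaks covered 14.1% and 11.7% of the band, against 3.25% and 2.68% of the autosomes, and no other list covered more than 1.29% of the band.

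The band is gene-dense and GC-rich, and the size of these ratios depended on what it was set against. It holds 20.8 protein-coding gene starts per Mb against 6.93 on the autosomes, its GC content was 47.7% against 40.9%, and protein-coding genes covered 72.5% of it against 45.3%. Against 100 kb bins of the same GC class the mean density ratio was 0.918 in untreated cells, 1.05 after APH, 1.80 after HU and 1.39 after MMS. Against bins with the same number of gene starts it was 1.33, 1.63, 2.04 and 1.79 in the same order. Against the rest of chromosome 22 it was 1.05, 1.32, 2.30 and 1.76. HU had the highest ratio under each of these references, and the untreated ratio fell below 1 in the GC class.

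**Figure D1:**
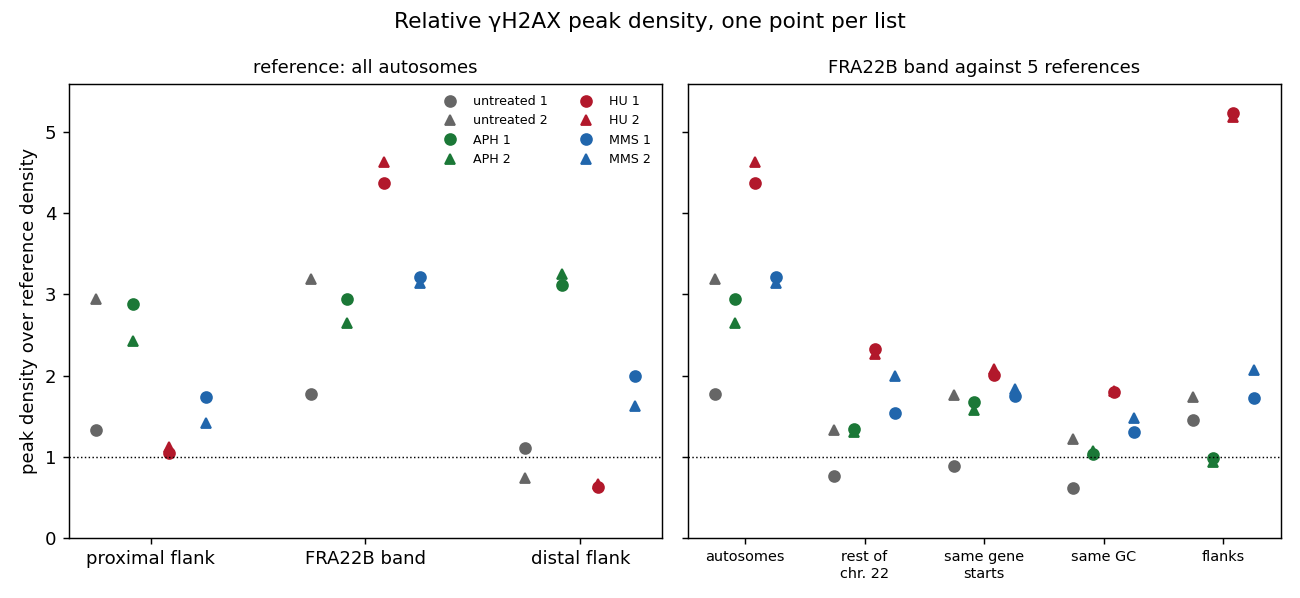
Peak density of each list (circles, replicate 1, and triangles, replicate 2) divided by a reference density, with the dotted line at 1. Left, the band and its 2.6 Mb flanks against all autosomes, and right, the band against 5 references. The HU points, at 4.38 and 4.64 in the band, drop to between 0.624 and 1.12 in the flanks, whereas APH stays between 2.42 and 3.25 in all 3 regions.

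The HU density was lower in the 2.6 Mb flanks than in the band, and the APH density stayed close to its value in the band. In the 2.6 Mb proximal to the band, HU gave 79 and 74 peaks, which is 1.05 and 1.12 times the autosomal density. In the 2.6 Mb distal to it, HU gave 47 and 44 peaks, or 0.624 and 0.667 times. APH gave 48 and 32 proximal peaks and 52 and 43 distal ones, close to its 49 and 35 in the band. Set against both flanks together, the mean ratio of the band was 5.21 for HU, 1.89 for MMS, 1.59 for untreated cells and 0.957 for APH, a reference added after the data were seen.

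MMS was intermediate, with 20 and 14 peaks in the proximal flank and 23 and 16 in the distal one. Untreated cells gave 6 and 12 proximal peaks and 5 and 3 distal peaks, so their replicates overlapped between the band and the proximal flank. The HU domain extended somewhat past both edges. The last 300 kb of the band had HU ratios of 2.6 and 2.6 to the autosomal density, and the 300 kb distal to it 3.1 and 2.9. The 300 kb proximal to the band had 2.6 and 3.0, against 4.9 and 6.2 in its first 300 kb. An unbroken run of 35 bins of 100 kb with HU peaks in both lists reached from chr22:28600001 to 32100000, that is 6 bins before the band and 3 after it. Beyond it, 6 consecutive proximal bins and 11 consecutive distal bins lacked a peak in at least 1 of the HU lists.

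**Figure D2:**
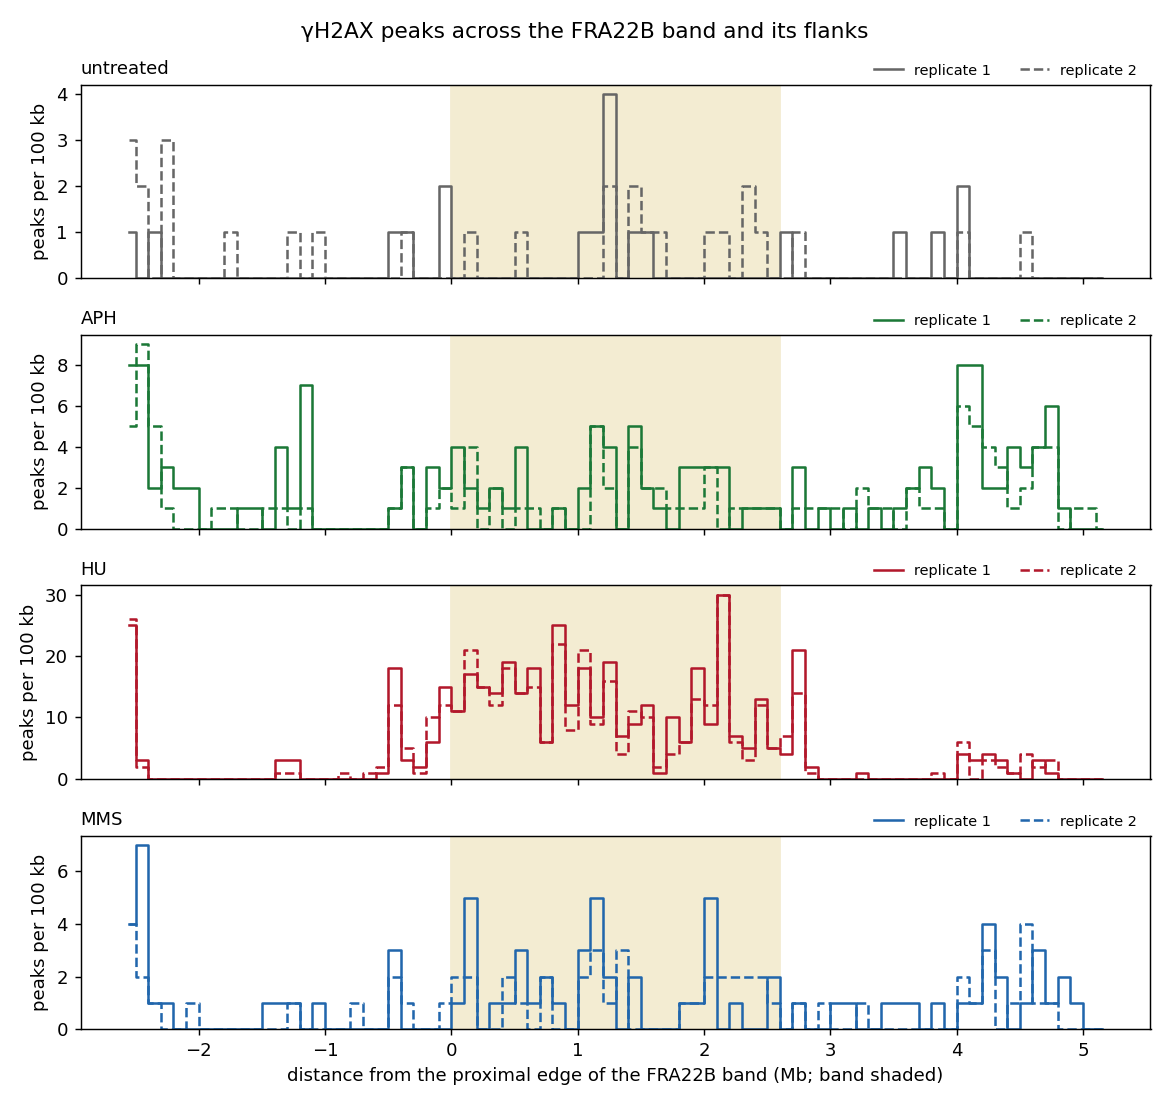
Peaks per 100 kb (vertical axis, a separate scale per condition) against distance from the proximal edge of the band in Mb, with the band shaded and solid and dashed lines for replicates 1 and 2. HU lines run above 0 through all 26 shaded bins and for 6 bins before and 3 after them, with both replicates at 30 peaks in the same bin.

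Among 108 bands with a listed common fragile site on the autosomes, 22q12.2 ranked second by HU density. The band above it, FRA15A at 15q22.1, is 0.2 Mb long and had a ratio of 6.07, and FRA14C at 14q24.1 followed with 4.48. The difference between FRA22B and FRA14C was smaller than the SD between the HU replicates in FRA22B. By MMS density the band had rank 3, by APH density rank 7 and in untreated cells rank 11. Windows of 2.6 Mb were moved along the autosomes in steps of 100 kb, so the 27201 windows overlap each other and the band. Of them, 97.7% had a lower density of HU peaks per assembled base than the band. The share was 98.5% for MMS, 95.5% for APH and 91.8% for untreated peaks.

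Within the band, HU peaks occurred in every one of the 26 bins of 100 kb in both lists, whereas 36.6% and 34.9% of autosomal bins had any. The HU count per bin ranged from 1 to 30 with a median of 12 in replicate 1, and from 2 to 30 with a median of 11.5 in replicate 2. APH peaks were found in 20 and 19 bins, or 76.9% and 73.1%, against 29.3% and 27.7% of autosomal bins. MMS peaks were found in 17 and 17, or 65.4% each, against 26.4% and 24.9%, and untreated peaks in 5 and 10, or 19.2% and 38.5%, against 10.4% and 10.3%. No bin of the other 6 lists held more than 5 peaks.

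The densest bin, chr22:31300001-31400000, held 30 HU peaks in each list. It contains PATZ1, a zinc finger transcription factor gene with 8 and 6 of those peaks, and the start of DRG1, which encodes a developmentally regulated GTP-binding protein. The second, chr22:30000001-30100000, held 25 and 22 and spans the end of MTMR3 and the start of HORMAD2. The third, chr22:30200001-30300000, held 18 and 21 and contains the cytokine genes LIF and OSM. In the densest bin APH gave 3 and 0 peaks, MMS 0 and 2, and untreated cells 0 and 1, so HU alone stood apart there.

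The sparsest bin, chr22:30800001-30900000 inside OSBP2, held 1 and 2 HU peaks. Merging both HU lists gave 452 regions with a median gap of 2.27 kb. The longest stretch of the band free of HU peaks, 86.7 kb at chr22:30824117-30910772, began in OSBP2, ran past its end and held 1 peak of each APH list. The next, 51.6 kb at chr22:30485169-30536779, overlaps SEC14L4 and SEC14L6 and held 1 peak of MMS replicate 2.

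More HU peaks in both treated lists than in both untreated lists were counted in 25 of 26 bins, or 96.2%, where the share over all autosomal bins was 29.4%. For APH the count was 11 of 26 against an autosomal share of 11.9%, and for MMS 11 of 26 against 8.38%, with 1 bin lower after MMS. These shares follow from the same peak numbers that chose the band. Counted as shares of each list's autosomal peaks, 16 bins were higher after HU, 7 after APH and 8 after MMS. For peaks enriched at least 3-fold the numbers were 15 for HU, 0 for APH and 1 for MMS. The share over all autosomal bins was not computed in these settings, so nothing is read from these counts.

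Across the 26 bins the HU replicates followed each other closely, with a Pearson correlation of 0.936 and a Spearman correlation of 0.924. The Pearson correlation was 0.588 between the APH replicates, 0.473 between the untreated ones and 0.388 between the MMS ones, whose counts per bin were low. The mean HU profile had a correlation of 0.181 with GC content, 0.242 with the number of gene starts, 0.0770 with the APH profile and 0.0803 with the MMS profile. These are descriptions over adjacent bins of 1 region. High and low bins were thus mostly shared by the HU replicates.

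Of the 54 protein-coding genes that overlap the band, 44 had HU peaks in both lists and 3, namely GAS2L1, RFPL1 and SEC14L4, had no peak in any list. In each HU list 47 genes, or 87.0%, had a peak, against 57.3% and 55.1% of autosomal genes. The numbers were 28 and 19 genes after APH, or 51.9% and 35.2% against 26.4% and 24.0% of autosomal genes, and 22 and 21 after MMS, or 40.7% and 38.9% against 27.2% and 24.8%. Untreated peaks lay in 7 and 7 genes, or 13.0% each, against 9.22% and 8.52%. More peaks in both HU lists than in both untreated lists were found for 44 genes, or 81.5%, where 46.4% of autosomal genes did so. This was the case for 12 genes after APH against an autosomal share of 9.68%, and for 11 genes after MMS against 9.61%, with 2 genes lower after MMS. The APH count became 24 without APH replicate 2 and the MMS count 17 without either MMS list. For peaks enriched at least 3-fold the counts were 7 for HU, 0 for APH and 1 for MMS. The share over all autosomal genes was not computed in these settings. A peak in overlapping genes is counted for each, as in RNF215, SEC14L2 and CCDC157, in DRG1, EIF4ENIF1 and SFI1, and in THOC5 and NIPSNAP1.

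**Figure D3:**
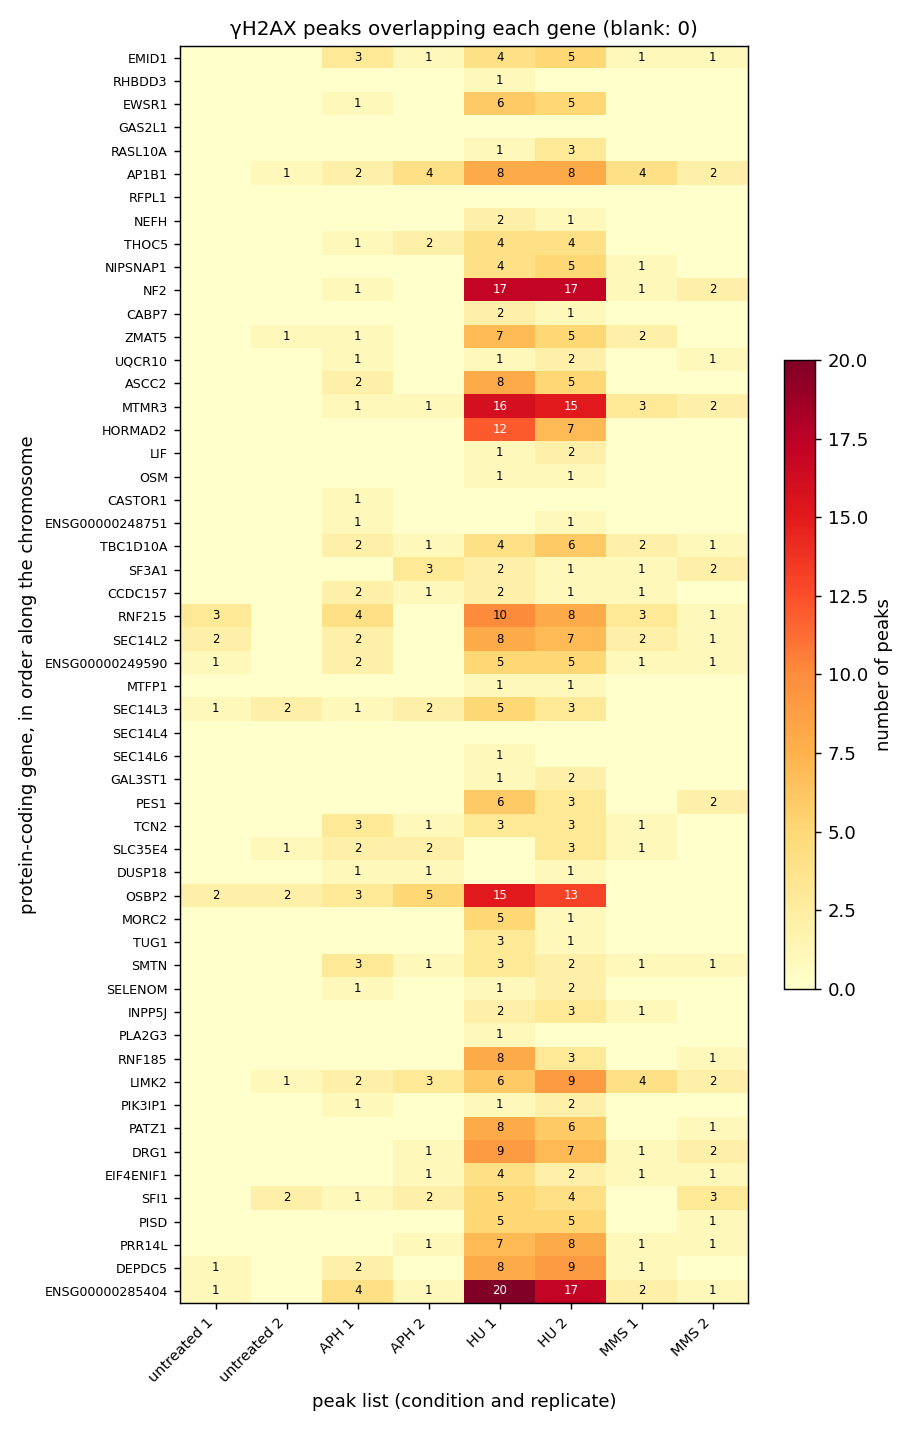
Number of peaks overlapping each of the 54 protein-coding genes (rows, in chromosomal order) in each of the 8 lists (columns), with blanks for 0. The HU columns are filled for 47 genes each and are darkest at NF2, MTMR3, OSBP2 and the long locus ENSG00000285404, most of which lies beyond the band.

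The tumour suppressor and growth control genes gave 26 and 28 HU peaks, and 3 of 4 had them in both lists, against 44 of 54 genes in the whole band. That share, 81.5%, is the background for the counts of each group by role, and no group was tested against it. NF2, at chr22:29603556-29698598, carried 17 and 17 HU peaks, none in either untreated list, 1 and 0 after APH, and 1 and 2 after MMS. Its HU counts did not overlap those of any other condition. DEPDC5, a subunit of the GATOR1 complex that restrains mTORC1, had 8 and 9 HU peaks over its whole length, of which 2 and 1 lay within the band. PIK3IP1, an inhibitor of phosphoinositide 3-kinase, had 1 and 2. CASTOR1, the arginine sensor of the mTORC1 pathway, had no HU peak and 1 APH peak in replicate 1.

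The lipid and phosphoinositide genes gave 40 and 38 HU peaks, in both lists for 5 of 6 against 44 of 54 in the band. MTMR3, a phosphoinositide phosphatase gene, had 16 and 15 HU peaks, 1 and 1 APH peaks, 3 and 2 MMS peaks and none in untreated cells. OSBP2, an oxysterol-binding protein gene, had 15 and 13 after HU, 3 and 5 after APH and 2 and 2 in untreated cells, with none after MMS. By the mean of the lists OSBP2 had the most untreated and APH peaks of the 54 genes, and 1 of the 2 genes lower after MMS. INPP5J, an inositol polyphosphate phosphatase gene, had 2 and 3 HU peaks and the phosphatidylserine decarboxylase gene PISD 5 and 5. The sulfotransferase gene GAL3ST1 had 1 and 2, and the phospholipase gene PLA2G3 had 1 and 0.

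The 4 SEC14-like lipid-binding genes, which lie close together, differed among themselves. SEC14L2 had 8 and 7 HU peaks and SEC14L3 had 5 and 3, while SEC14L6 had 1 and 0 and SEC14L4 had none. SEC14L3 was also the other gene lower after MMS, with no MMS peak and 1 and 2 untreated peaks. Overlapping SEC14L2, the ring finger gene RNF215 had 10 and 8 HU peaks, 4 and 0 APH peaks, 3 and 1 MMS peaks and 3 and 0 untreated peaks, so its untreated and APH peaks came from replicate 1 alone. The neighbouring cytokine genes LIF and OSM, both of the interleukin-6 family, are short and had 1 and 2, and 1 and 1, HU peaks, with none in any other list.

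All 5 genes of chromatin, transcription and DNA repair had HU peaks in both lists, 40 and 27 in sum, where 44 of 54 genes of the band did. They had 0 and 0 peaks in untreated cells. HORMAD2, a meiotic chromosome axis gene, had 12 and 7, and PRR14L, a relative of a heterochromatin-tethering gene, had 7 and 8. ASCC2, a subunit of a complex active in alkylation repair and ribosome rescue, had 8 and 5 HU peaks and no MMS peak. MORC2, an ATPase of HUSH-dependent silencing, had 5 and 1, its replicates lying further apart than those of PATZ1 at 8 and 6.

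The 7 RNA-binding and RNA-processing genes likewise all had HU peaks in both lists, 38 and 27 in sum, beside 44 of 54 in the band. DRG1 had 9 and 7, EWSR1 had 6 and 5, and ZMAT5, a protein of the minor spliceosome, had 7 and 5. PES1, needed for ribosome assembly, had 6 and 3, THOC5 of the mRNA export complex 4 and 4, and EIF4ENIF1, a transporter of the cap-binding protein eIF4E, 4 and 2. The splicing factor gene SF3A1 had 2 and 1 HU peaks but 0 and 3 APH peaks and 1 and 2 MMS peaks, so HU did not stand apart there.

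Of the cytoskeletal genes, 4 of 5 had HU peaks in both lists, close to the 44 of 54 in the band. LIMK2, the kinase that phosphorylates cofilin, had 6 and 9 HU peaks, 2 and 3 APH peaks, 4 and 2 MMS peaks and 0 and 1 untreated peaks, so it exceeded untreated cells in both lists of every drug. SFI1, a centrosomal centrin-binding protein, had 5 and 4 HU peaks, 1 and 2 APH peaks, 0 and 3 MMS peaks and 0 and 2 untreated peaks. The smooth muscle gene SMTN had 3 and 2 HU peaks, 3 and 1 APH peaks and 1 and 1 MMS peaks, and NEFH, the neurofilament heavy chain gene, 2 and 1 HU peaks alone.

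Membrane traffic and signalling genes gave 31 and 30 HU peaks, in both lists for 7 of 9, again close to 44 of 54. AP1B1, a subunit of the AP-1 clathrin adaptor, had 8 and 8 HU peaks, 2 and 4 APH peaks, 4 and 2 MMS peaks and 0 and 1 untreated peaks. It held more peaks in both lists of each drug than in either untreated list. The Rab regulator TBC1D10A had 4 and 6 HU peaks, 2 and 1 APH peaks and 2 and 1 MMS peaks, and EMID1 had 4 and 5, 3 and 1, and 1 and 1 in the same order. RNF185, a ubiquitin ligase of the endoplasmic reticulum, had 8 and 3 HU peaks and no APH peak, whereas the vitamin B12 carrier gene TCN2 had 3 and 3 HU peaks and 3 and 1 APH peaks. The mitochondrial genes UQCR10, MTFP1 and NIPSNAP1 gave 6 and 8 HU peaks in sum, and NIPSNAP1 alone had 4 and 5.

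Long genes collected more peaks, so the 34 genes of at least 20 kb were also compared per length. Their median was 1.03 HU peaks per 10 kb (mean of the lists), against 0.270 over 11207 autosomal genes of that length. PATZ1 was highest with 3.41, followed by SEC14L2 with 2.64, NF2 with 1.79 and RNF215 with 1.70. EIF4ENIF1 had 0.507, SLC35E4, a solute carrier gene, 0.451, SFI1 0.346 and SEC14L6 0.209. The order therefore differed from that by peak number, since MTMR3 and OSBP2 are long. SLC35E4 had 0 and 3 HU peaks and 2 and 2 APH peaks, so its low value rested on HU replicate 2 alone.

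The sizes and heights of the peaks were not used to choose the band and were tested. HU peaks were wider than those of the other lists, and the difference in width between the band and elsewhere was within the spread between lists. The median width was 406.5 and 406 bp in untreated cells, 669 and 481 bp after APH, 831 and 748.5 bp after HU, and 575 and 552 bp after MMS. In the rest of the autosomes the HU medians were 763 and 743 bp, against 519 to 562 bp in the other 6 lists. Wider HU peaks were thus not particular to the band. The HU lists exceeded the other 6 lists by 275 bp on average, the smallest possible p in an exact two-sided permutation test of 2 against 6 lists (p = 0.0357). The exact permutation p was 0.0952 without APH replicate 2 and 0.143 without either HU list, the smallest that 1 list against 6 allows. A test of 2 against 2 lists cannot go below an exact permutation p of 0.333, which each drug reached against untreated cells.

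Single HU peaks were much wider than these medians. The widest, of 7605 bp at chr22:31379977-31387581 in HU replicate 1, overlaps no protein-coding gene and lies in the densest bin. In HU replicate 2 the widest had 5181 bp and lay in EWSR1. The widest peaks of the other 6 lists had between 711 bp, in OSBP2 in an untreated list, and 2080 bp, in MTMR3 after MMS.

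Band minus rest of the autosomes, the median width differed by -11.1 ± 93.7 bp (SD over 8 lists), with an exact sign-flip permutation p of 0.734. Median fold enrichment was slightly higher in the band. It was 2.64 and 2.67 in untreated cells, 2.56 and 2.67 after APH, 2.74 and 2.81 after HU, and 2.70 and 2.69 after MMS, a mean difference from the rest of 0.0312 ± 0.0269. It was higher in 7 of 8 lists, with an exact sign-flip permutation p of 0.0234, adjusted over the 6 measures to 0.0469. The adjusted exact permutation p rose above 0.05 when any single list other than APH replicate 2 was left out, and against the rest of chromosome 22 the difference was -0.00104 (exact permutation p = 0.922).

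**Figure D4:**
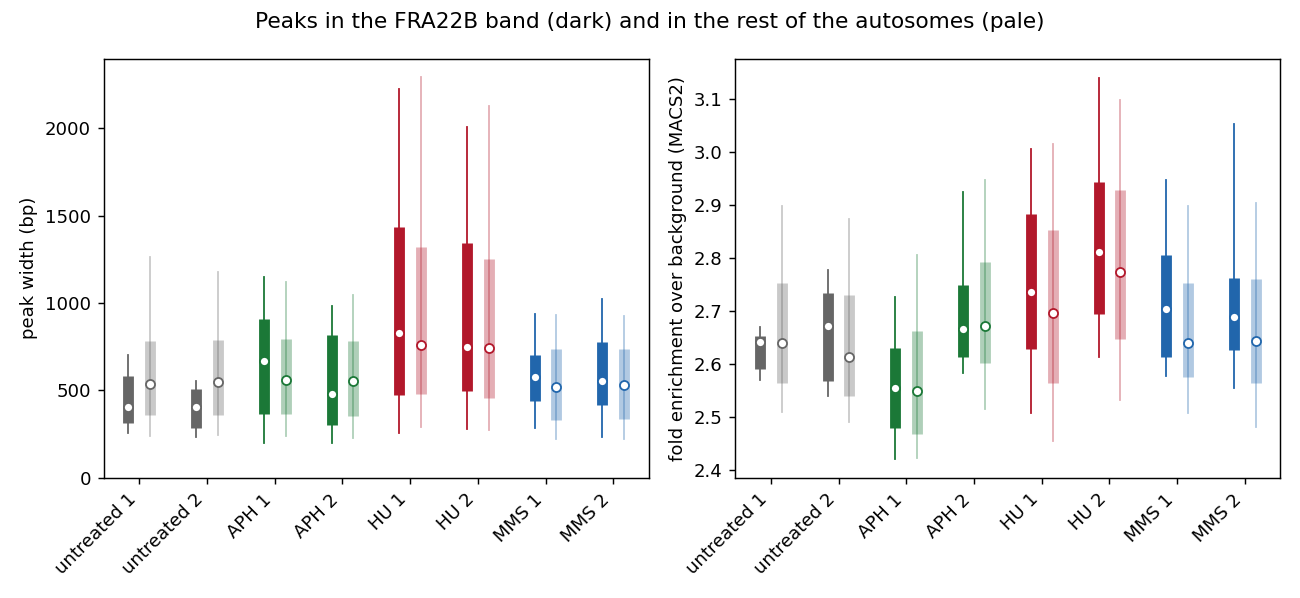
Peak width in bp (left) and MACS2 fold enrichment (right) per list, with the median as a point, the 25th to 75th percentiles as a thick bar and the 10th to 90th as a thin line, dark for the band and pale for the rest of the autosomes. The HU medians of 831 and 748.5 bp stand above the other band medians, while fold enrichment in band and rest overlaps widely.

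The HU peaks of the band were also the only ones there to pass a q-value of 0.05, that is, to remain after correction for the number of positions tested. Of them 277, or 83.9%, passed in replicate 1 and 196, or 64.1%, in replicate 2, near the 78.4% and 60.2% of HU peaks that passed in the rest of the autosomes. None passed in the other 6 lists, of whose peaks elsewhere between 0.164% and 1.31% passed. The lowest q-value outside HU was 0.0599, in MMS replicate 1. The peaks of the other conditions were thus listed by the authors' unadjusted p-value threshold and are less firmly called.

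HU peaks recurred between replicates, and those of the other conditions almost never did. Of the HU peaks, 170 or 51.5% in replicate 1 and 171 or 55.9% in replicate 2 overlapped a peak of the other replicate, against 43.2% and 50.9% in the rest of the autosomes. For APH 2 peaks of each list did so, or 4.08% and 5.71% against 10.4% and 13.3% elsewhere, and for MMS 2 of each, or 5.41% and 6.45% against 5.98% and 6.97%. No untreated peak did, against 16.01% and 19.5% elsewhere. Both HU lists were thus higher in the band and the other 6 lists lower. Such overlap grows with the share of bases that peaks cover. HU peaks covered 14.1% and 11.7% of the band, against 3.25% and 2.68% of the autosomes. No other list covered more than 1.29% of the band. The overlap due to coverage alone was not computed, so nothing is read from these differences between conditions or regions. The share found in both replicates differed from that elsewhere by -4.67 percentage points over the 8 lists (exact sign-flip permutation p = 0.219, adjusted 0.328). The 2 lists of a condition share the same overlaps, so they are not independent here. The test counts each overlap in both lists, and nothing is read from its p.

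Overlapping peaks of the HU lists formed 184 pairs. Of these, 76 lay in introns alone, 56 touched an exon and 52 lay outside annotated genes. An APH peak overlapped 23 of the pairs, an MMS peak 21 and an untreated peak 11. The reverse shares were larger, since HU peaks are many. On average 28.8% of APH peaks, 36.0% of MMS peaks and 48.6% of untreated peaks in the band overlapped an HU peak, against 26.1%, 25.1% and 36.0% elsewhere. Conversely 3.92%, 3.78% and 1.5% of HU peaks in the band overlapped those lists, against 5.54%, 3.78% and 2.24% elsewhere. APH and MMS peaks met less often, at 6.94% of APH peaks and 8.63% of MMS peaks, against 5.73% and 8.97% elsewhere.

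The first HU site, whose sequence is printed above, spans chr22:29475994-29477654 and had a fold enrichment of 3.28 and 3.44 with q-values of 0.00420 and 0.00470. It overlapped an APH peak in 1 list and no untreated or MMS peak. Another HU site, chr22:31683910-31684928 in an exon of PRR14L with untranslated sequence, had 3.42 and 3.06 and overlapped no peak of another condition.

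The first APH site, chr22:30358427-30358750 in CCDC157, had a fold enrichment of 2.52 and 2.81 with q-values of 0.777 and 0.202. It overlapped an HU peak in 1 list. The second, in the vitamin B12 carrier gene TCN2, rested on an overlap of 14 bp between its peaks.

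Peaks of the band lay in protein-coding genes more often than peaks elsewhere, and the HU peaks were the least genic. The share in genes was 75% and 76.9% in untreated cells, 79.6% and 88.6% after APH, 62.7% and 59.8% after HU and 78.4% and 83.9% after MMS, where genes cover 72.5% of the band. It exceeded the share in the rest of the autosomes in 8 of 8 lists, by 16.3 ± 10.4 percentage points (exact sign-flip permutation p = 0.00781, the smallest possible, adjusted 0.0234). Protein-coding genes cover only 45.3% of the autosomes, so this test cannot separate the peaks from the region. For HU the rest of the autosomes had 59.1% and 58.8%, the values nearest to those of the band. Against the rest of chromosome 22 the mean difference was 11.5 points with an adjusted exact permutation p of 0.141. In the 50% of each list with the lowest p-values it was 14.9 points (adjusted exact permutation p = 0.0625). For peaks enriched at least 3-fold it turned to -2.86 points.

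GC content moved the same way. It averaged 47.3% and 45.9% over untreated peaks, 50% and 48.2% over APH peaks, 46.1% and 46.7% over HU peaks and 48.7% and 46.8% over MMS peaks, within a band of 47.7%. The difference from the rest of the autosomes was 1.92 ± 0.894 percentage points, higher in 8 of 8 lists (exact sign-flip permutation p = 0.00781, adjusted 0.0234). The autosomes have a GC content of 40.95%, so this test likewise cannot separate the peaks from the region. The difference was -0.653 against the rest of chromosome 22, with an adjusted exact permutation p of 0.266. The part of the base composition and gene content of chromosome 22 in these differences was not tested further.

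Few peaks of the band lay at gene starts. Within 1 kb of a protein-coding start lay 15 of 330 and 17 of 306 HU peaks, 1 and 0 APH peaks, 1 and 1 MMS peaks and no untreated peak. These stretches hold 3.79% of the bases of the band, which is not the same measure as peaks counted by any overlap. For HU the share of peaks was 4.5% and 5.6%, above the 3.4% and 3.5% in the rest of the autosomes. The band holds 20.8 gene starts per Mb against 6.93 on the autosomes, so a higher share is not more peaks per start. Peaks per start were not computed. The share was higher in the band in 4 of 8 lists, with a mean difference of -0.249 ± 1.87 percentage points (exact sign-flip permutation p = 0.711). Within 5 kb the share was higher in the band by 6.04 points (adjusted exact permutation p = 0.0313). The band has more gene starts per Mb than the autosomes, so this test cannot separate the peaks from the region. HU peaks in both lists lay near the starts of 6 of 54 genes, NIPSNAP1, HORMAD2, RNF215, INPP5J, RNF185 and DRG1. The share over all autosomal genes was not computed.

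The band is rich in Alu elements and in long A or T runs, and HU peaks carried about the Alu share of the band as a whole. Alu matches took 22.7% of its bases, against 11.6% and 12.1% in the proximal and distal flanks and 13.9% of chromosome 22. Runs of at least 20 A or T occurred 12.4 times per 100 kb, against 7.15, 7.85 and 8.01. Alu sequence made up 21.2% and 19.7% of the HU peak bases in the band, 15.2% and 16.7% of APH, 12.6% and 9.32% of MMS, and 2.49% and 19.4% of untreated, where 8 and 13 peaks carry the value. In the rest of chromosome 22 the share of HU peak bases was 22.2% and 21.5%, close to that inside the band. The denser Alu content of the band moves with its HU peak number relative to its flanks, and its part in that number was not tested.

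**Figure D5:**
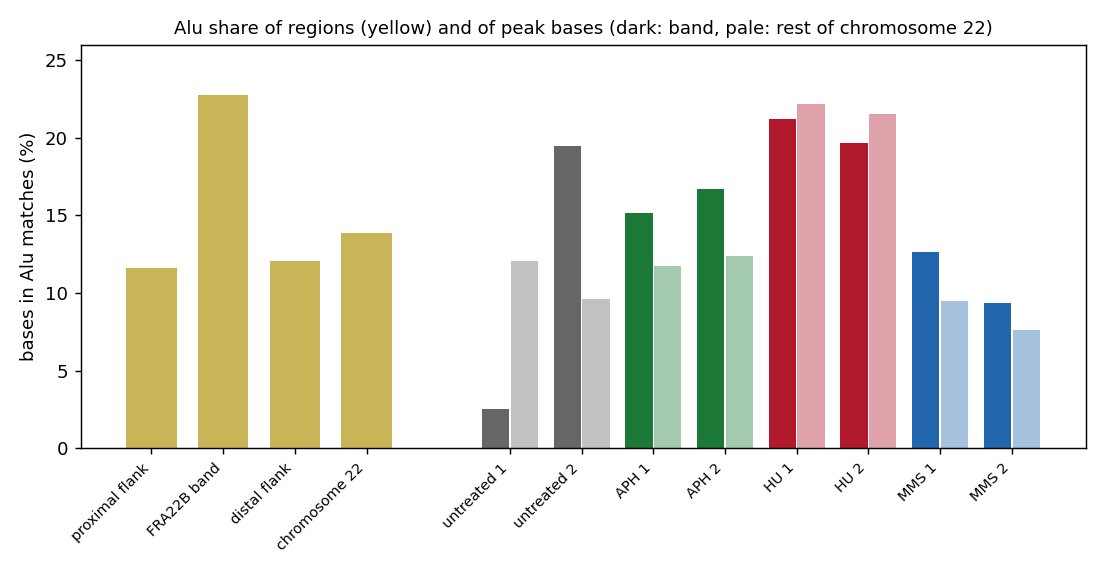
Share of bases in Alu matches, in percent, for the flanks, the band and chromosome 22 (yellow) and for the peak bases of each list in the band (dark) and in the rest of chromosome 22 (pale). The band stands at 22.7% against 11.6% and 12.1% in its flanks, and the HU bars lie at 21.2% and 19.7% in the band.

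A or T runs of that length were met by 25 HU peaks, or 7.58%, in replicate 1 and by 19, or 6.21%, in replicate 2. The frequency was 7.65 and 7.22 runs per 100 kb of HU peak sequence, below the 12.4 per 100 kb of the band itself and near the 8.86 and 8.30 of HU peaks in the rest of chromosome 22. In the other 6 lists at most 1 band peak met such a run.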

How the data were processed

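γH2AX ChIP-seq broad peaks of a human B-lymphocyte line were analysed in 8 lists, 2 per condition, grouped by the sample labels. The band, gene lists and tests were chosen with earlier results of these data known. The authors trimmed paired-end 100 bp reads, aligned them to GRCh38 with Bowtie2, removed reads below a mapping quality of 40 with SAMtools and PCR duplicates, called broad peaks with MACS2 per replicate by a p-value threshold and removed blacklisted regions. Tool versions were not given in the sources used here. The deposited lists give for each peak a score, not used here, a fold enrichment (a ratio to local background), and −log10 of its p-value and of its q-value. They hold no read counts, so depth is unknown and the spread between lists is the only measure of precision.

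Band and gene counts used peaks overlapping by at least 1 bp, bins and windows used peak midpoints, and 100 kb bins needed 50% assembled bases. Genes were the protein-coding genes of GENCODE v44, in which TUG1, known as a non-coding RNA, is listed as one. All are counted over their whole length, so DEPDC5 and ENSG00000285404 include peaks beyond the band. Alu matches came from BLAST 2.17.0 on chromosome 22. RN7SL1 was used to find 72 genomic candidates of 300 bp, and the most typical of them was the only query for the matches. Matches had an E-value of at most 1e-05 and at least 100 bp, so diverged and short copies are missed. A peak met a run or lay near a start by any overlap. Sites are overlapping peaks of both replicates, and sequences were cut from GRCh38 around the centre of the overlap, up to 300 bp.

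Named genes were the 8 with the most peaks per condition, the 4 of at least 20 kb with the most and the fewest HU peaks per 10 kb, and genes listed by role. Named sites were up to 3 per condition, of which some are not reported here. Tests were two-sided exact permutation tests over lists, with sign flips for band minus rest and Benjamini-Hochberg adjustment over 6 measures, in Python 3.11.15 with numpy 2.4.6, pandas 2.3.3 and scipy 1.17.1, and were tested on simulated data. Replicate numbers were not a pairing, since deviations of same-numbered lists over 27614 bins had correlations between -0.00999 and 0.0378. Alternatives covered the reference for density, peak strength, bin size, distances and leaving out each list.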

Additional observations from a re-analysis of the deposited data

How the results depend on the processing

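Of 191 alternative values, 128 kept their direction and their side of the threshold or stayed within the spread. The density ratios were 0.918 (untreated), 1.05 (APH), 1.80 (HU) and 1.39 (MMS) against bins of the same GC class, 1.33, 1.63, 2.04 and 1.79 against bins with as many gene starts, and 1.05, 1.32, 2.30 and 1.76 against the rest of chromosome 22. Against the flanks, added after seeing the data and not matched in gene starts or GC content, they were 1.59 (untreated), 0.957 (APH), 5.21 (HU) and 1.89 (MMS). Covered bases gave 1.31 (untreated), 2.57 (APH) and 3.43 (MMS). The stronger 50% of each list, by p-value, gave 2.31 (APH), 4.81 (HU) and 4.18 (MMS), and adding chromosome X 4.76 (HU) and 3.36 (MMS). HU gave 4.81 at a q-value of at most 0.05 and 4.70 at a fold enrichment of at least 3.

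Band minus rest, fold enrichment differed by -0.00903 among peaks of at least 3-fold (6 lists) and -0.00993 in the 50% of peaks with the lowest p-values. It differed by -0.00104 against chromosome 22, 0.0163 by means, and 0.0264 to 0.0366 without single lists. Its adjusted exact permutation p rose above 0.05 when any single list other than APH replicate 2 was left out. The genic share differed by -2.86 points at 3-fold, 14.9 in the stronger 50% (adjusted exact permutation p = 0.0625) and 11.5 against chromosome 22 (0.141), so its call was lost in all of these settings, and GC content by 2.82 and, against chromosome 22, -0.653. The share in both replicates differed by -10.5 points in the stronger 50%. No p is read for it, since the 2 lists of a condition share the same overlaps and are not independent. The share near starts differed by 6.04 points within 5 kb. The width difference ranged from -28 to 7.86 bp and the share near starts from -0.585 to 0.113 points without single lists, both turning positive without either untreated list. The cause of these changes was not tested.

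The HU width difference of 275 bp had an exact permutation p of 0.0625 with a replicate block, since the block allows fewer arrangements. It ranged from 234 to 316 bp without single lists, and its p rose above 0.05 without APH replicate 2 or either HU list. The block changed no other call and moved no count by over 1.5 times, and its exact permutation p for 2 against 2 lists cannot go below 0.5.

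At a fold enrichment of at least 3, bins above untreated cells numbered 0 (APH), 15 (HU) and 1 (MMS) of 26, and genes 0, 7 and 1 of 54. By share of each list's autosomal peaks they numbered 7 (APH), 16 (HU) and 8 (MMS) bins. Of bins of 50 kb, 47 of 52 were above untreated cells for HU. Genes ranged from 13 to 24 (APH) and 11 to 17 (MMS) without single lists, with 24 without APH replicate 2 and 17 without either MMS list. The shares over all autosomal bins and genes were not computed in these settings. Ratios were not computed where fewer than 1 peak was expected. Peak lists without reads do not show signal under the calling threshold, so a gene or bin at 0 had no peak called at an unknown depth.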
